A study of Mus musculus with 12 samples.

Results

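The core loop of the circadian clock was examined as 9 of the 23183 genes listed in every library, matched by gene symbol. The set was chosen with earlier results of these data known, so its counts beside those of all genes are a description. Its positive arm was taken as *Arntl* (also called *Bmal1*), *Clock* and *Npas2*, and its negative arm as *Per1*, *Per2*, *Per3*, *Cry1*, *Cry2* and *Ciart*. The tissue came from male C57BL/6 mice bought at 7 weeks of age and kept for 1 week before treatment. They then received either a single cranial dose of 10 Gy (IR) or sham treatment with 0 Gy (Con), and the cortex and the hippocampus were taken 3 months later. RNA was sequenced from 3 libraries in each of 4 groups, cortex Con, cortex IR, hippocampus Con and hippocampus IR, which makes 12 libraries in all. The study asked which genes differ in the irradiated brain in the late phase after exposure, and the question here was how the clock genes differed between IR and Con in each tissue.

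In mammalian cells the proteins ARNTL and CLOCK, or in forebrain neurons ARNTL and the CLOCK relative NPAS2, pair up and bind E-box sequences to switch on the *Per* and *Cry* genes. PER and CRY proteins return to the nucleus and repress this pair, so that the transcripts of the loop rise and fall over the day, and CIART (also called CHRONO) is a further repressor that binds ARNTL. The master clock lies in the suprachiasmatic nucleus, while cortex and hippocampus carry clocks of their own that follow it, and the messages of the loop peak one after another at different times of day.

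Values are FPKM, fragments scaled to the length of the transcript and to the number of mapped fragments, and the libraries summed to between 359773 and 393447 FPKM. The number of reads per library is unknown, and relative depth, read from the step between low values, lay within 1 to 1.13 times that of the first Con library of the same tissue. The tissue labels held in the data: 6 hippocampal marker genes summed to between 150.2 and 180.0 FPKM in hippocampus and 6.40 to 12.8 FPKM in cortex, and 4 cortical marker genes to 64.2 to 67.7 FPKM in cortex and 19.6 to 26.4 FPKM in hippocampus. Of 4 marker genes of the suprachiasmatic nucleus, *Six6*, *Nms* and *Prok2* were under 0.5 FPKM in every library, and *Avp* was at 0 to 2.46 FPKM, highest in cortex Con 1 (2.46) and hippocampus Con 2 (2.42). No source used here says whether the 3 libraries of a group came from separate mice, whether both tissues came from the same mice or which time of day each tissue was taken, so p-values measure only the spread between these libraries, and an effect of irradiation and a difference in sampling time between the groups cannot be told apart. In bulk tissue, fewer cells of a type and less RNA per cell cannot be told apart either.

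In the cortex, 3 of the 9 genes passed the test between IR and Con, *Arntl* and *Per2* upward and *Ciart* downward. The test was limma on log2(FPKM + 1), with p-values adjusted over all 14065 genes tested in that tissue, and 0.725% of those genes passed at an adjusted p under 0.05. At an unadjusted limma p under 0.05 the count was 7 of 9, 5 higher and 2 lower in IR, against 14.1% of all genes tested. The 3 Con and 3 IR libraries did not overlap for 8 of the 9 genes, all except *Clock*, against 20.3% of all genes tested. The median log2 fold change of the 9 genes was 0.17, and that of all genes tested was 0.0016.

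In the hippocampus, none of the 9 genes passed, 0 of 9 by limma at an adjusted p under 0.05 against 0.0285% of 14043 genes tested, and 1 of 9, *Ciart*, had an unadjusted p under 0.05 against 13.9% of all genes. The libraries of Con and IR did not overlap for 1 of 9 genes, again *Ciart*, against 19.8% of all genes tested. The median log2 fold change was 0.05 over the 9 genes and -0.010 over all genes tested. An exact permutation test of 3 libraries against 3 cannot go below a two-sided p of 0.1, so single-gene p-values here come from limma, which draws on the spread of all genes.

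**Figure D1:**
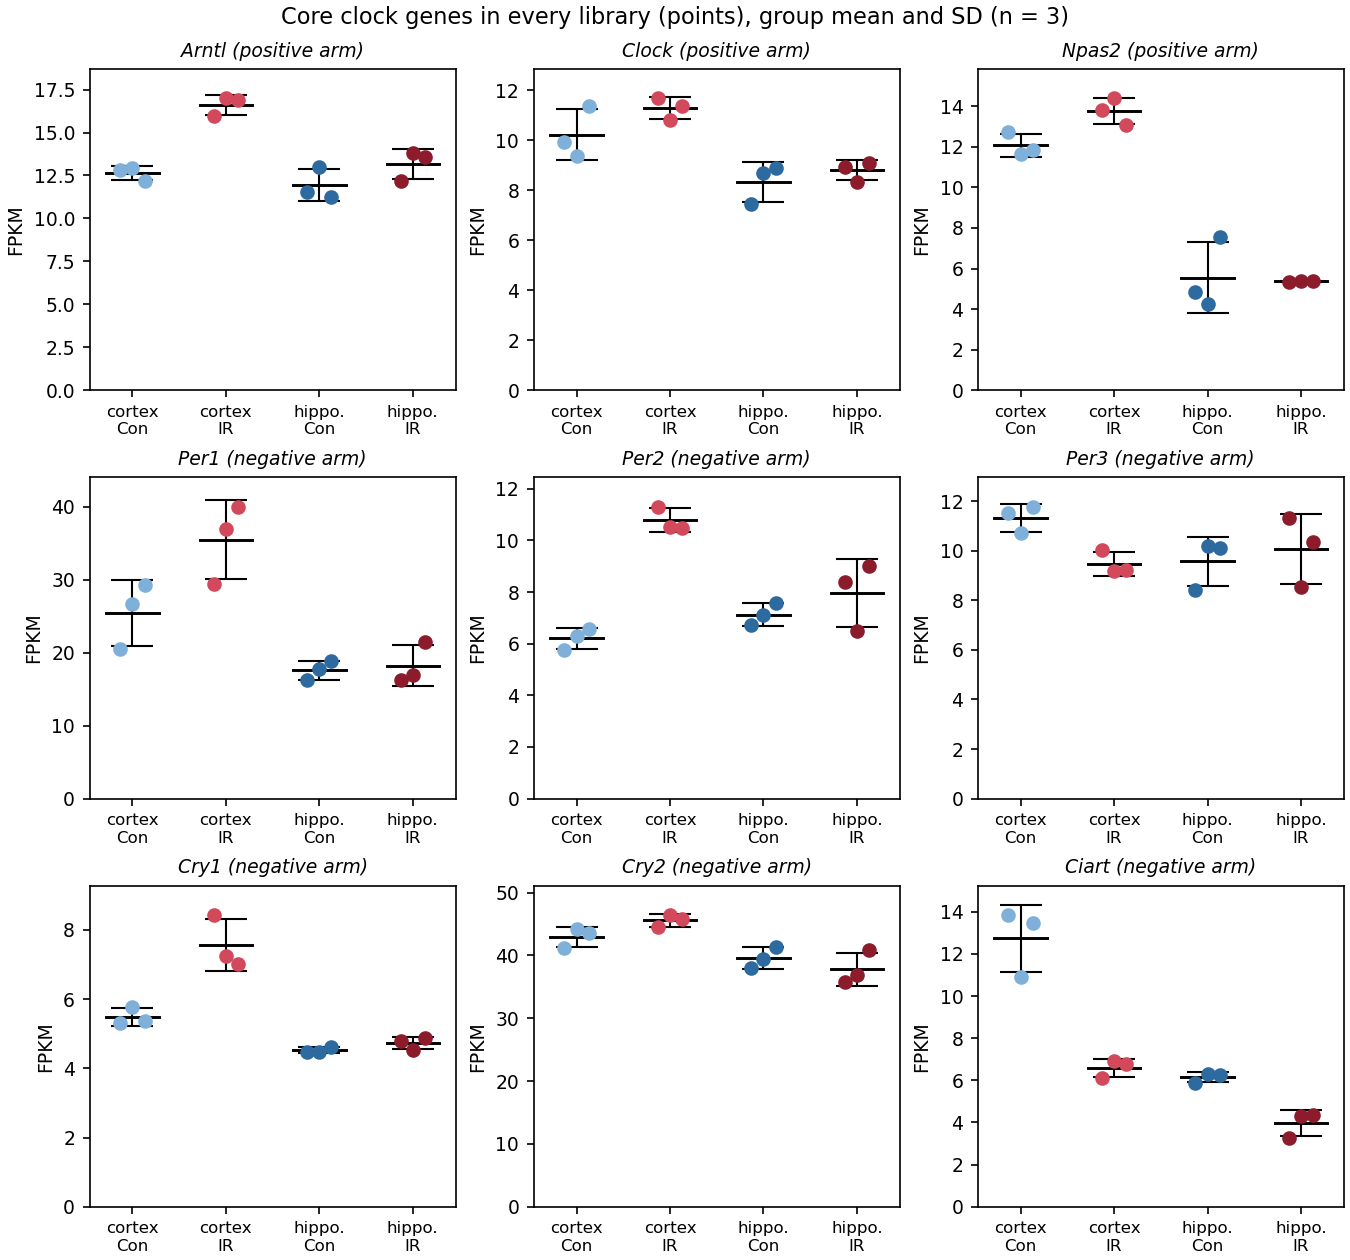
FPKM (vertical axis, from 0) of the 9 core clock genes in each of the 12 libraries, with 1 panel per gene, points for libraries and bars for the group mean and SD (n = 3). In cortex, *Ciart* lies at 6.10 to 6.92 FPKM in IR below all Con libraries, and *Per2* at 10.5 to 11.3 FPKM in IR above all Con libraries.

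*Arntl*, the partner that both CLOCK and NPAS2 need to bind DNA, rose in the irradiated cortex. In cortex Con libraries 1, 2 and 3 it was at 12.8, 12.9 and 12.2 FPKM, and in cortex IR at 15.9, 17.0 and 16.9 FPKM. Every IR library lay above every Con library, with means of 12.7 ± 0.40 and 16.6 ± 0.58 FPKM (SD, n = 3) and a ratio of 1.31. The log2 fold change was 0.37 (95% interval 0.24 to 0.49, adjusted p = 0.0286 by limma). That call was lost in 8 of 15 alternative analyses, with adjusted p-values between 0.0240 and 0.123, while the fold change stayed between 0.34 and 0.39. Among the 15 was the log2 ratio of group means, which has no p-value and could not lose a call. It was lost when any of the 3 IR libraries or Con 1 or Con 3 was left out.

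In the hippocampus *Arntl* was at 11.5, 13.02 and 11.3 FPKM in Con and at 12.2, 13.8 and 13.6 FPKM in IR, and the groups overlapped. The log2 fold change of 0.13 (95% interval -0.05 to 0.32) did not pass (adjusted p = 0.471). *Arntl* lies at chr7:113207465-113314126 on the plus strand of GRCm38 in the GENCODE M21 annotation, and 33 of its 7523 exon bases are shared with *Gm45355*, annotated on the opposite strand. Transcription of *Arntl* is known to be switched on by ROR proteins and off by REV-ERB proteins at ROR elements. The letters TAGGTCA of such an element, in capitals, start 30 bases after the second of its RefSeq starts, inside an annotated exon at chr7:113207541-113207547. The same letters, read on both strands, occur in 2.61% of 32851 promoter windows of 300 bases. The site is shown with its flanks (chr7:113207531-113207557, plus strand) because *Nr1d1*, the gene of REV-ERB alpha, is described below:
Arntl ROR element: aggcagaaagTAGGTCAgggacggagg

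*Npas2*, which takes the place of CLOCK in parts of the forebrain, was at 12.7, 11.7 and 11.8 FPKM in cortex Con and at 13.8, 14.4 and 13.1 FPKM in cortex IR. The libraries did not overlap, but the log2 fold change of 0.17 (95% interval 0.03 to 0.32) did not pass after adjustment (adjusted p = 0.263, unadjusted p = 0.0202 by limma). Hippocampus values of *Npas2* were 4.85, 4.25 and 7.55 FPKM in Con and 5.35, 5.37 and 5.40 FPKM in IR. The single library Con 3 lay above all others there, and the log2 fold change of -0.01 became 0.20 without it, which turned its direction. *Npas2* is at chr1:39193731-39363236 on the plus strand.

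*Clock*, whose protein is the usual partner of ARNTL, was at 9.93, 9.39 and 11.4 FPKM in cortex Con and at 11.7, 10.8 and 11.4 FPKM in cortex IR. It was the only member whose cortex groups overlapped, and its log2 fold change of 0.13 (95% interval -0.04 to 0.30) had an adjusted p of 0.470. Hippocampus values of *Clock* were 7.44, 8.70 and 8.90 FPKM in Con and 8.95, 8.35 and 9.11 FPKM in IR, with an adjusted p of 0.709. *Clock* is at chr5:76209868-76304792 on the minus strand.

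Of the period genes, *Per2* rose in the irradiated cortex. PER2 is a scaffold of the repressor complex, and its gene is also induced by light, hormones and neuronal activity. *Per2* was at 5.77, 6.28 and 6.57 FPKM in cortex Con and at 11.3, 10.5 and 10.5 FPKM in cortex IR. The IR libraries lay above all Con libraries, with means of 6.21 ± 0.40 and 10.8 ± 0.46 FPKM (SD, n = 3) and a ratio of 1.74. The log2 fold change was 0.71 (95% interval 0.55 to 0.87, adjusted p = 0.00400 by limma), and the call was kept in every alternative that gave a p-value. In the hippocampus *Per2* was at 6.71, 7.12 and 7.56 FPKM in Con and at 8.39, 6.48 and 9.01 FPKM in IR. Those groups overlapped, and the log2 fold change of 0.13 (95% interval -0.13 to 0.39) had an adjusted p of 0.607. *Per2* is at chr1:91415982-91459324 on the minus strand.

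*Per1*, the other period gene with a fast response to stimulation, was at 20.5, 26.7 and 29.3 FPKM in cortex Con and at 29.5, 36.9 and 40.0 FPKM in cortex IR. All IR libraries lay above all Con libraries, with the nearest pair at 29.3 and 29.5 FPKM, and the spread within the groups was the widest of the 9 genes in cortex, with a coefficient of variation of 17.8% in Con and 15.3% in IR. Its log2 fold change of 0.47 (95% interval 0.14 to 0.80) did not pass after adjustment (adjusted p = 0.216, unadjusted p = 0.0116 by limma). In the hippocampus it was at 16.3, 17.7 and 18.9 FPKM in Con and at 16.3, 16.9 and 21.5 FPKM in IR, and those groups overlapped. There the log2 fold change was 0.04 (95% interval -0.21 to 0.29, adjusted p = 0.891).

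*Per1* is at chr11:69095217-69109960 on the plus strand and has 2 RefSeq starts with a window of promoter sequence. The stretch before the first start (chr11:69098699-69098947, plus strand) holds the E-box letters CACGTG, which are the binding sequence of the ARNTL pairs, and the stretch before the second (chr11:69099902-69100151, plus strand) holds TGACGTC, the core of a CRE, the element bound by the activity-responsive factor CREB. Both motifs are in capitals below, shown because they set the clock input of this gene beside its activity input. CACGTG occurs in 7.15% and TGACGTC in 3.21% of the 32851 windows, read on both strands, and a match of letters does not show that the site is used:
Per1 start 1: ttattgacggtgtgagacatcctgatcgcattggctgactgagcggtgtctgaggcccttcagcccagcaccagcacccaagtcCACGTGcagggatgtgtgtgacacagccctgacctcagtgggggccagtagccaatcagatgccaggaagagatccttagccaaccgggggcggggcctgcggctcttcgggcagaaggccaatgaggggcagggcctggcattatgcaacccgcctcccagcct
Per1 start 2: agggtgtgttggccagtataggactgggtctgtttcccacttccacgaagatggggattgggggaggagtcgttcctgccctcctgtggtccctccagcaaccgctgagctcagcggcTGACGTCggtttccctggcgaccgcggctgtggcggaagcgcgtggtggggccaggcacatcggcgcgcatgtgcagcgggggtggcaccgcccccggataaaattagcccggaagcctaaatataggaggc

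Genes that neurons switch on when active were read beside the period genes. All 9 genes of that list were higher in cortex IR, with a median log2 fold change of 0.97, and 2 of them passed, against 0.725% of all genes, *Egr3* at 0.97 (adjusted p = 0.000185) and *Fosb* at 0.77 (adjusted p = 0.0303 by limma). The largest differences were those of *Arc* at 1.66 and *Fos* at 1.28, with adjusted p-values of 0.286 and 0.367. Cortex Con 1 stood apart, with *Arc* at 26.4 FPKM against 73.2 and 86.6 in Con 2 and Con 3, and *Fos* at 4.58 FPKM against 14.8 and 14.4. Without it, in an alternative chosen after seeing the data, all 9 were still higher, with a median of 0.74, and 4 passed, against 0.524% of all genes in that fit. *Fos* was then at 0.79 (adjusted p = 0.120), *Arc* at 1.15 (adjusted p = 0.00138), *Egr3* at 0.94 (adjusted p = 0.000780) and *Fosb*, whose call was lost, at 0.67 (adjusted p = 0.0507). *Per1* was at 0.32 and *Per2* at 0.67 without that library, with adjusted p-values of 0.288 and 0.00938. Summed over the list, the cortex libraries spanned 172.9 to 351.9 FPKM in Con and 567.3 to 681.8 FPKM in IR. In the hippocampus the fitted log2 difference was above 0 for all 9, with a median of 0.09, none called, 1 of 9 at an unadjusted p under 0.05 against 13.9% of all genes, and sums of 121.8 to 171.8 FPKM in Con and 144.2 to 224.1 FPKM in IR. There *Fos* differed by 0.63 and *Arc* by 0.42, with adjusted p-values of 0.313 and 0.526. The part of these genes in the *Per1* and *Per2* values was not tested.

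*Per3*, the period gene that is least needed for the rhythm itself, was at 11.5, 10.7 and 11.8 FPKM in cortex Con and at 10.04, 9.20 and 9.21 FPKM in cortex IR. It was the only period gene with lower values in the irradiated cortex, and its libraries did not overlap. Its log2 fold change of -0.24 (95% interval -0.38 to -0.09) did not pass after adjustment (adjusted p = 0.168, unadjusted p = 0.00533 by limma). Its hippocampus values were 8.43, 10.2 and 10.1 FPKM in Con and 11.3, 8.55 and 10.3 FPKM in IR, with an adjusted p of 0.819. *Per3* is at chr4:151003652-151044665 on the minus strand, and the 250 bases before its start (chr4:151044666-151044915, minus strand) hold the D-box letters TTATGTAA at -205 and -158. These letters, in capitals, are the binding sequence of the activator DBP and of the repressor NFIL3, whose transcripts are described below, and they occur in 0.938% of all windows:
Per3: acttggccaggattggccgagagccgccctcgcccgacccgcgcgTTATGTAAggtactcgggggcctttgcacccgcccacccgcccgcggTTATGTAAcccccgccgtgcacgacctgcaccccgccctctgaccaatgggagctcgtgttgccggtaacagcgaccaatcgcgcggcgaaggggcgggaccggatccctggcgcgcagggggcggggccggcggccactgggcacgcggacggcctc

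The cryptochrome genes encode the strongest repressors of the loop. *Cry1* was at 5.30, 5.78 and 5.36 FPKM in cortex Con and at 8.44, 7.24 and 7.03 FPKM in cortex IR, with a ratio of means of 1.38. All IR libraries were higher than all Con libraries, yet the log2 fold change of 0.40 (95% interval 0.22 to 0.58) did not pass (adjusted p = 0.0686, unadjusted p = 0.000644 by limma). In a fit of all 12 libraries together it passed, with an adjusted p of 0.0304, as did 0.539% of all genes. In the hippocampus *Cry1* was at 4.48, 4.47 and 4.62 FPKM in Con and at 4.79, 4.52 and 4.88 FPKM in IR, with a log2 fold change of 0.05 (95% interval -0.11 to 0.22, adjusted p = 0.752).

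*Cry1* is at chr10:85131700-85185064 on the minus strand. Its promoter (chr10:85185065-85185304, minus strand) holds an E-box starting at -60 and the E'-box letters AACGTG at -79, which occur in 4.69% of all windows, and both are in capitals below to set them beside those of *Ciart*:
Cry1: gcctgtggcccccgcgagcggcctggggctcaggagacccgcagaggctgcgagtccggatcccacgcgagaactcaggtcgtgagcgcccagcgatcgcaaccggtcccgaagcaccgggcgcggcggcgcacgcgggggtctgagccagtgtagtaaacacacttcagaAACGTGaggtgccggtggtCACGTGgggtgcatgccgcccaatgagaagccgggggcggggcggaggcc

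*Cry2* was the most abundant message of the loop per length. It was at 41.1, 44.2 and 43.6 FPKM in cortex Con and at 44.5, 46.5 and 45.8 FPKM in cortex IR. The groups did not overlap, but by only a narrow gap, and the log2 fold change of 0.08 (95% interval -0.03 to 0.20) had an adjusted p of 0.510. Hippocampus values of *Cry2* were 38.0, 39.4 and 41.4 FPKM in Con and 35.8, 36.8 and 40.8 FPKM in IR, with a log2 fold change of -0.07 and an adjusted p of 0.683. *Cry2* is at chr2:92403646-92434043 on the minus strand and shares 295 of its 6320 exon bases with *D930015M05Rik* on the opposite strand. That gene was at 0.895 to 1.76 FPKM. The study's methods name a directional library kit, but whether reads were counted by strand is not given in the sources used here. An AACGTG match lies at -166 from the start of *Cry2*.

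*Ciart* fell in the irradiated cortex and had lower values in the irradiated hippocampus. It was at 13.9, 10.9 and 13.5 FPKM in cortex Con and at 6.10, 6.92 and 6.75 FPKM in cortex IR. The means were 12.7 ± 1.59 and 6.59 ± 0.43 FPKM (SD, n = 3), a ratio of 0.517, and every IR library lay below every Con library. The log2 fold change was -0.85 (95% interval -1.06 to -0.65, adjusted p = 0.00447 by limma), and the call was kept in every alternative that gave a p-value. In the hippocampus it was at 5.87, 6.32 and 6.25 FPKM in Con and at 3.29, 4.31 and 4.34 FPKM in IR. Here too the groups did not overlap, with a ratio of means of 0.647 and a log2 fold change of -0.53 (95% interval -0.76 to -0.29). The adjusted p was 0.214 and the unadjusted p 0.000812, and the difference passed in the fit of all 12 libraries (adjusted p = 0.0453) and without hippocampus Con 3 (adjusted p = 0.0468). The share of all genes passing was 0.505% in the first of these fits and 6.33% in the second.

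*Ciart* is at chr3:95878503-95882251 on the minus strand. Its promoter (chr3:95882252-95882478, minus strand) holds the E-box letters CACGTG at -116, -58 and -44 from the annotated start, the most matches among the 12 windows of the loop, and is printed for this reason with the matches in capitals:
Ciart: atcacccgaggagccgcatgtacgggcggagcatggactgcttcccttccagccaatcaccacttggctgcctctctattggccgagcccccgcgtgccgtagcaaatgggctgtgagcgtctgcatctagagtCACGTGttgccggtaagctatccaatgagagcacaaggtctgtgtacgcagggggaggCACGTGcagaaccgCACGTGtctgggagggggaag

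Over the loop, 8 of the 9 genes had a RefSeq promoter window, in 12 windows of 300 bases in the GRCm38.p6 table, each with 250 bases before the start and 50 after it. No searched motif was found in the window of *Npas2*, in any of the 3 windows of *Clock* or at the first start of *Arntl*, which says only that these letters are not in those windows. No match overlapped another.

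**Figure D2:**
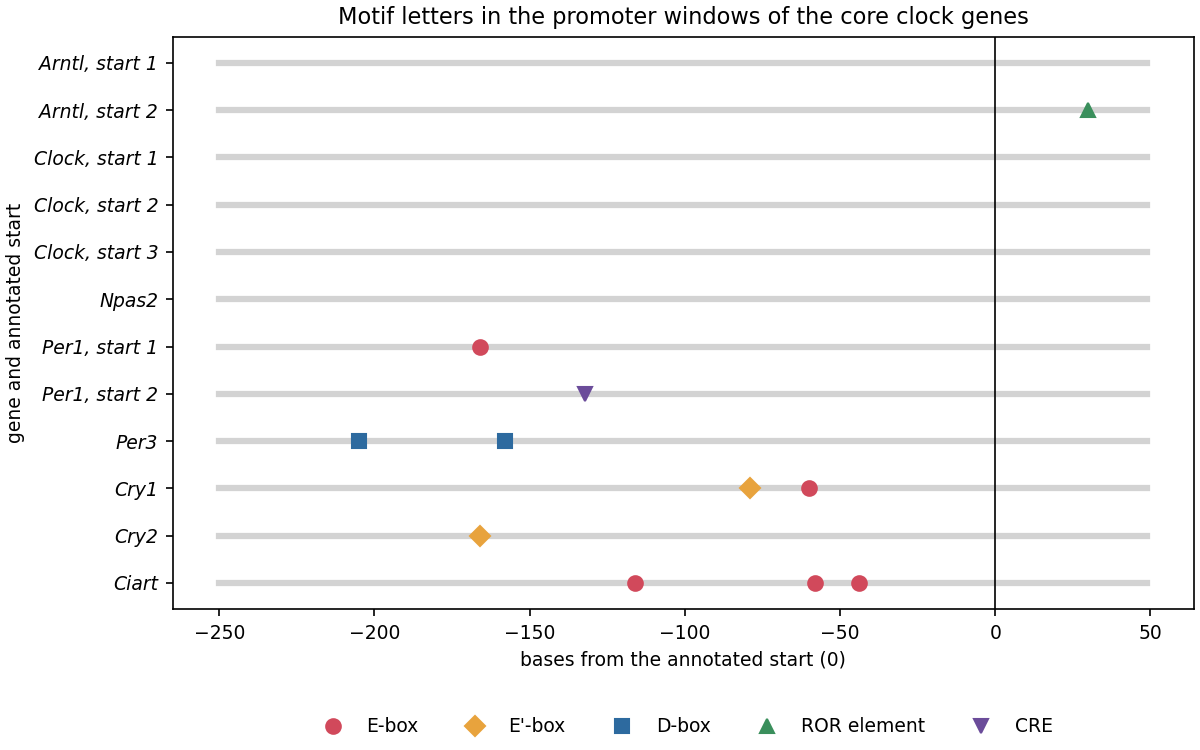
Matches of 5 motifs, E-box CACGTG, E'-box AACGTG, D-box TTATGTAA, ROR element TAGGTCA and CRE TGACGTC, in 12 promoter windows of core clock genes (rows), plotted as bases from the annotated start (horizontal axis). The window of *Ciart* holds E-box matches at -116, -58 and -44, and that of *Per3* holds D-box matches at -205 and -158.

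The change after irradiation was compared between the tissues with an interaction term fitted to all 12 libraries, on 14459 genes, with the libraries taken as independent since it is not given whether both tissues share mice. None of the 9 members passed, 0 of 9 by limma at an adjusted p under 0.05 against 0.0830% of all genes. At an unadjusted p under 0.05 the count was 5 of 9, against 10.4% of all genes. The difference was largest for *Per2*, for which the change in hippocampus minus that in cortex was -0.58 on the log2 scale (95% interval -0.87 to -0.28, adjusted p = 0.196, unadjusted p = 0.000963). Next came *Per1* at -0.43, *Cry1* at -0.35 and *Ciart* at 0.32, with adjusted p-values of 0.488, 0.304 and 0.459. The change of *Arntl* differed by -0.23 and that of *Per3* by 0.30, with adjusted p-values of 0.433 and 0.465. A call in the cortex that was missed in the hippocampus was therefore not shown to differ between the tissues, and a p that misses the threshold does not show that the tissues responded alike.

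**Figure D3:**
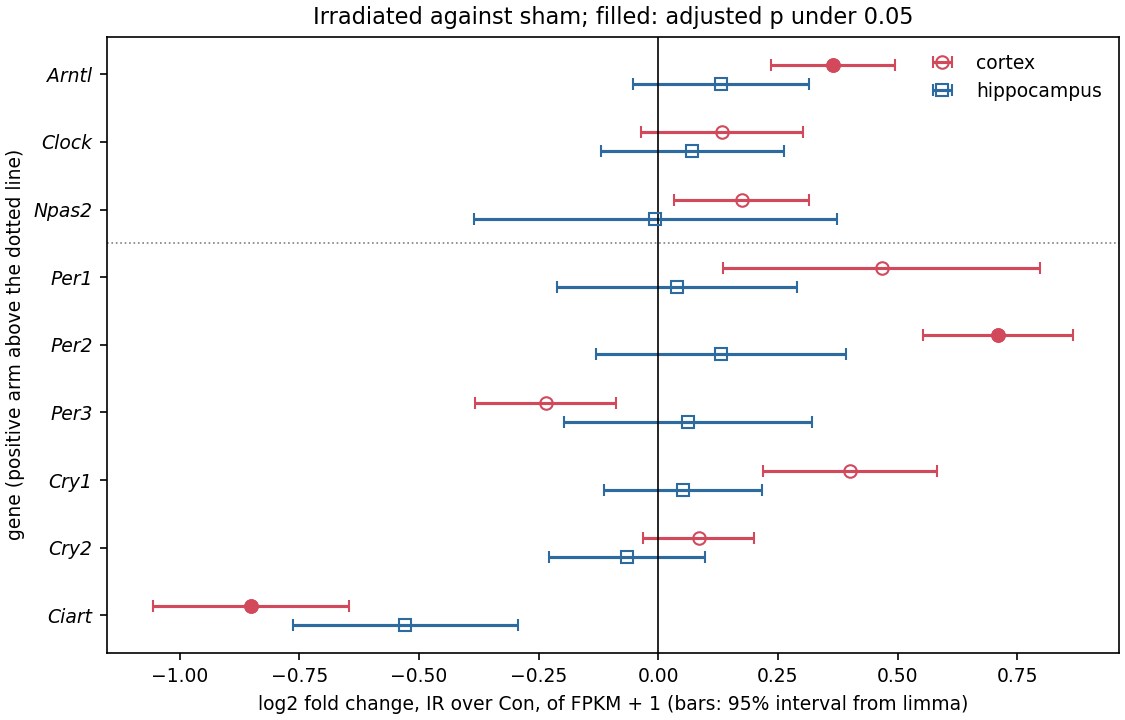
log2 fold change of FPKM + 1, IR over Con (horizontal axis), of the 9 core clock genes (rows) in cortex and hippocampus, with 95% intervals from limma and filled symbols for an adjusted p under 0.05. The cortex values run from -0.85 for *Ciart* to 0.71 for *Per2*, and the hippocampus values from -0.53 for *Ciart* to 0.13 for *Arntl* and *Per2*.

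In Con, 8 of the 9 genes had a lower fitted level in hippocampus than in cortex, and 5 of them passed by limma at an adjusted p under 0.05, against 44.2% of all 14459 genes passing in either direction. *Per2* was the member with a higher level in hippocampus, at 0.17 on the log2 scale (adjusted p = 0.163) with libraries that did not overlap. At an unadjusted p under 0.05 the members' count was 6 of 9 and that of all genes 51.1%, so the share of the loop is near the background. The count of 5 became 3 without cortex Con 3 or without hippocampus Con 1, and the share of all genes in those fits is not given here. *Npas2* differed most, by -1.03 on the log2 scale (adjusted p = 3.23e-05 by limma), followed by *Ciart* at -0.94 (adjusted p = 6.53e-06), *Per1* at -0.49 (adjusted p = 0.0121), *Clock* at -0.26 (adjusted p = 0.0171) and *Cry1* at -0.23 (adjusted p = 0.0224). The value columns of cortex and hippocampus files end in different codes. What the codes stand for is not given in the sources used here, and their part in the difference between tissues was not tested.

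The order of the group means differed from gene to gene. For *Arntl*, cortex IR was highest and did not overlap hippocampus IR, while hippocampus IR, cortex Con and hippocampus Con overlapped with their neighbours in that order. For *Per2*, cortex IR was followed by hippocampus IR and hippocampus Con, which overlapped, and cortex Con came last, without overlap with hippocampus Con but overlapping hippocampus IR. For *Ciart*, cortex Con was followed by cortex IR and hippocampus Con, which overlapped, and hippocampus IR lay lowest without overlap. The irradiated cortex thus held *Ciart* at 6.59 ± 0.43 FPKM and the sham hippocampus at 6.14 ± 0.24 FPKM (SD, n = 3). For *Npas2* and *Cry1* both cortex groups lay above both hippocampus groups, and the hippocampus groups overlapped. For *Per3* each group overlapped its neighbour in the order.

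*Arntl* and *Ciart*, the members that passed in opposite directions in the cortex, were set side by side after their values were seen. The ratio of *Arntl* to *Ciart* FPKM was 0.927, 1.19 and 0.907 in cortex Con and 2.61, 2.45 and 2.50 in cortex IR. In the hippocampus it was 1.96, 2.06 and 1.80 in Con and 3.70, 3.20 and 3.13 in IR. The ratio was higher in every IR library than in every Con library of the same tissue, and every hippocampus Con library lay between the cortex Con and cortex IR libraries. *Ciart* does not stand for its arm, since *Per1*, *Per2* and *Cry1* were higher in cortex IR. With *Per2* in its place the ratio ran the other way in cortex, at 2.23, 2.06 and 1.86 in Con and 1.41, 1.61 and 1.61 in IR. In the hippocampus the ratio of *Arntl* to *Per2* was 1.72, 1.83 and 1.49 in Con and 1.45, 2.13 and 1.51 in IR, and the groups overlapped.

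**Figure D4:**
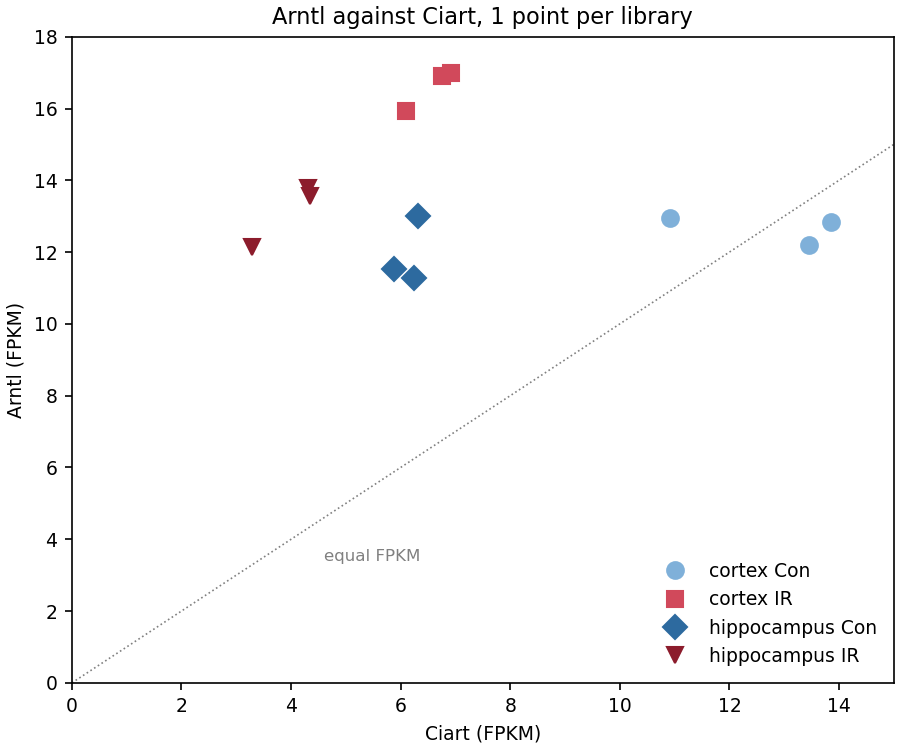
*Arntl* (vertical axis, FPKM) against *Ciart* (horizontal axis, FPKM), 1 point per library and 1 symbol per group. The cortex Con libraries lie at 10.9 to 13.9 FPKM of *Ciart* and the cortex IR libraries at 6.10 to 6.92 FPKM, with higher *Arntl*.

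The accessory loop and the output genes of the clock were read from a list of 11 genes. REV-ERB and ROR proteins compete at ROR elements, and DBP, TEF and HLF activate D-boxes that NFIL3 represses. In the cortex 4 of 11 were higher and 7 lower in IR, with a median log2 fold change of -0.04. There 1 passed upward, *Nfil3*, and 2 downward, *Dbp* and *Nr1d1*, against 0.725% of all genes, while 2 were higher and 3 lower at an unadjusted p under 0.05, against 14.1%. In the hippocampus 4 were higher and 7 lower, with a median of -0.10, none passed by limma, and 2 were higher and 3 lower at an unadjusted p under 0.05, against 13.9% of all genes. Without hippocampus Con 3, 1 passed upward and 2 downward there, against 6.33% of all genes in that fit. *Dbp* was among them, but *Nfil3* (adjusted p = 0.0609 by limma) and *Nr1d1* (adjusted p = 0.603) were not.

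*Dbp*, a classical output of the E-box, fell in the irradiated cortex from 51.3, 45.4 and 48.4 FPKM in Con to 24.1, 23.5 and 25.2 FPKM in IR. Its log2 fold change was -0.97 (adjusted p = 0.000185 by limma), close in size to that of *Ciart*. In the hippocampus *Dbp* was at 26.7, 24.7 and 31.3 FPKM in Con and at 14.2, 15.8 and 16.2 FPKM in IR, and the log2 fold change of -0.80 had an adjusted p of 0.0823. It passed in the fit of all 12 libraries (adjusted p = 0.00142) and without hippocampus Con 3 (-0.71, adjusted p = 0.0140). *Nr1d1*, the repressor of *Arntl*, fell in the cortex from 70.2, 66.2 and 76.4 FPKM to 41.9, 49.4 and 48.97 FPKM, by -0.59 on the log2 scale (adjusted p = 0.0124). This call was lost without cortex IR 1 (-0.52, adjusted p = 0.0521), with no filter (adjusted p = 0.0517) and under a plain limma prior (adjusted p = 0.0588). In the hippocampus it was at 38.9, 37.0 and 49.2 FPKM in Con and at 35.6, 36.2 and 37.6 FPKM in IR, and its groups overlapped there (log2 fold change -0.18, adjusted p = 0.458). *Nfil3* rose in the cortex from 3.63, 4.18 and 4.14 FPKM to 6.33, 6.31 and 7.04 FPKM (log2 fold change 0.60, adjusted p = 0.0139), and the call was lost when any cortex IR library was left out, with log2 fold changes of 0.56 to 0.62 and adjusted p-values of 0.0506 to 0.0727. In the hippocampus *Nfil3* was at 3.39, 4.05 and 3.34 FPKM in Con and at 5.60, 4.75 and 5.47 FPKM in IR (0.45, adjusted p = 0.225), without overlap, and it passed in the fit of all 12 libraries (adjusted p = 0.0453).

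Of 10 genes whose proteins modify or bind clock proteins, 6 were higher and 4 lower in cortex IR, with a median log2 fold change of 0.02. Only *Usp2*, a deubiquitinase that acts on clock proteins, passed, against 0.725% of all genes. At an unadjusted p under 0.05 the count was 2 of 10, against 14.1% of all genes. *Usp2* fell from 35.4, 36.2 and 30.3 FPKM in cortex Con to 22.4, 23.3 and 24.4 FPKM in cortex IR, by -0.52 on the log2 scale (adjusted p = 0.0168 by limma). The call of *Usp2* was lost without cortex IR 1 or IR 2, with no filter and under a plain limma prior. *Csnk1e*, a kinase that marks PER proteins for degradation, differed by 0.15 (adjusted p = 0.266). In the hippocampus 2 were higher and 8 lower and none passed by limma, with 2 of 10 at an unadjusted p under 0.05 against 13.9% of all genes, *Usp2* at -0.39 (adjusted p = 0.247) and the kinase gene *Gsk3b* at -0.18 (adjusted p = 0.286). Without hippocampus Con 3, *Usp2* passed there (adjusted p = 0.0275), as did 6.33% of all genes in that fit.

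**Figure D5:**
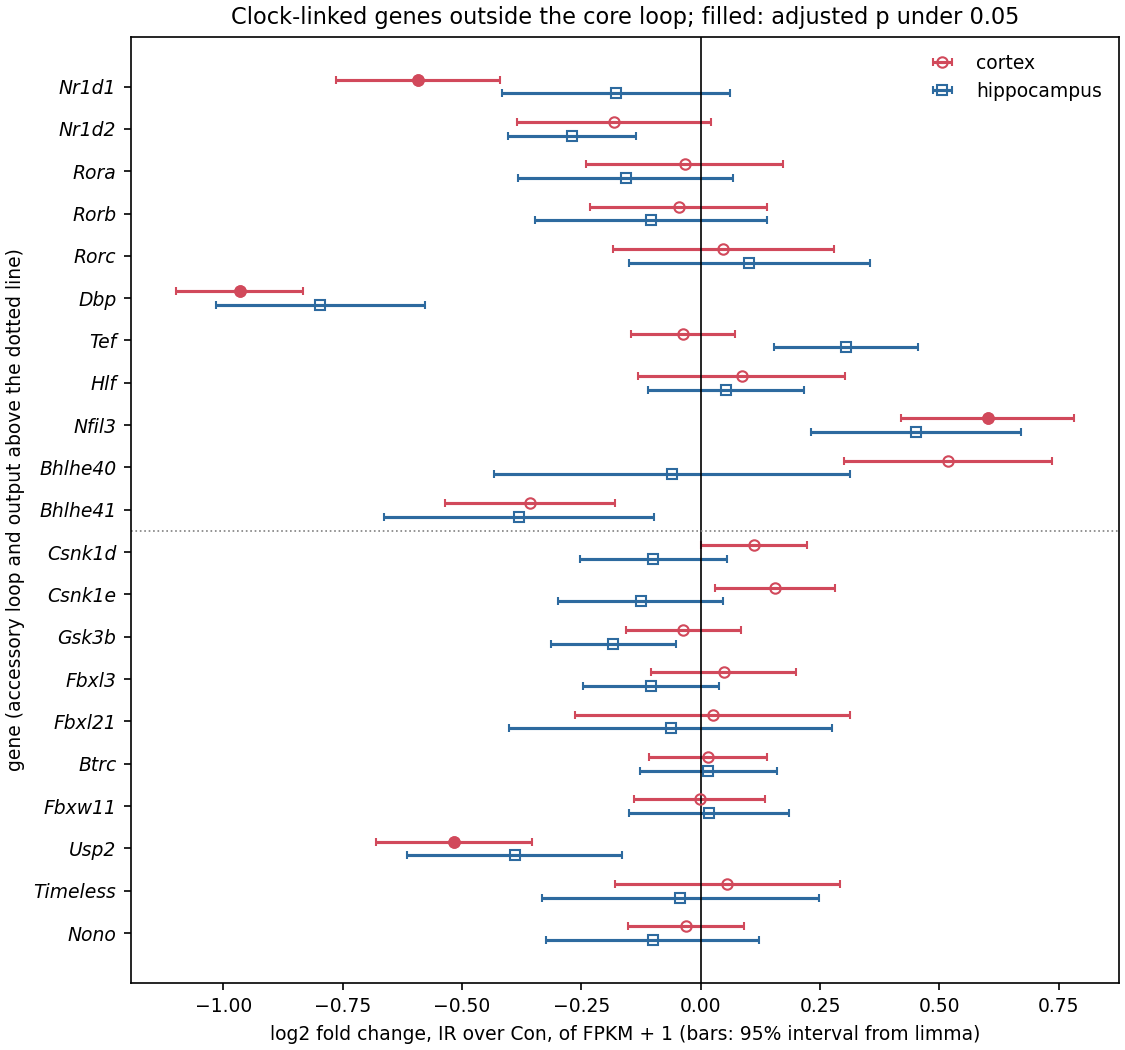
log2 fold change of FPKM + 1, IR over Con (horizontal axis), of 11 accessory loop and output genes and 10 genes of regulators of clock proteins (rows) in cortex and hippocampus, with 95% intervals from limma and filled symbols for an adjusted p under 0.05. *Dbp*, *Nr1d1* and *Usp2* lie below 0 and *Nfil3* above 0 in cortex with filled symbols, and no hippocampus symbol is filled.

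Over the day, *Nr1d1*, *Dbp*, *Ciart* and *Per3* are known to peak before *Per1* and *Per2*, and *Cry1*, *Nfil3*, *Arntl*, *Npas2* and *Clock* later. These genes were picked after their values were seen, so their signs are a description and no test. The 4 early genes had log2 fold changes from -0.97 to -0.24 in cortex, and the 7 later ones from 0.13 to 0.71. A further 6 listed clock genes had values of both signs. *Tef* and *Hlf*, relatives of *Dbp*, were at -0.04 and 0.09 in cortex, *Nr1d2* at -0.18, *Cry2* at 0.08, *Bhlhe40* at 0.52 and *Bhlhe41* at -0.36, and none of these 6 passed. In the hippocampus *Nr1d1*, *Dbp* and *Ciart* were at -0.80 to -0.18, *Per3* at 0.06 and the later genes at -0.01 to 0.45, and of the other 6 *Tef* was at 0.30, *Hlf* at 0.05, *Nr1d2* at -0.27, *Cry2* at -0.07, *Bhlhe40* at -0.06 and *Bhlhe41* at -0.38. *Tef*, *Nr1d2* and *Bhlhe41* had unadjusted p-values of 0.00160, 0.00168 and 0.0144 and adjusted p-values of 0.225, 0.225 and 0.291 by limma. With 1 time of sampling and no clock time given, a shift of phase, a change of amplitude and a difference in the hour of collection cannot be told apart.

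Genes that follow body temperature and glucocorticoids, both of which vary over the day, were read beside these values. Of 6 temperature-linked genes 5 had an unadjusted p under 0.05 in the cortex, against 14.1% of all genes, and the libraries of these 5 did not overlap, against 20.3%. After adjustment 1 passed, against 0.725% of all genes, the cold-inducible *Cirbp*, at -0.71 on the log2 scale (adjusted p = 0.0168 by limma), and the heat shock gene *Hspa1b* differed by 0.55 (adjusted p = 0.115). In the hippocampus none passed by limma, with 4 of 6 at an unadjusted p under 0.05 against 13.9% of all genes, and *Cirbp* differed by -1.10 (adjusted p = 0.230) and the related *Rbm3* by -0.86 (adjusted p = 0.214). Of 4 glucocorticoid-responsive genes none passed in either tissue, with 0 of 4 at an unadjusted p under 0.05 in cortex and 1 of 4 in hippocampus. The largest differences among them in cortex were *Sgk1* at 0.29 (adjusted p = 0.556) and *Zbtb16* at 0.15 (adjusted p = 0.393), and in hippocampus *Tsc22d3* at -0.34 (adjusted p = 0.259) and *Zbtb16* at -0.16 (adjusted p = 0.574). The part of these genes in the clock values was not tested.

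Cell type markers were read beside these values. Microglial markers summed to 33.5 to 37.9 FPKM in cortex Con and 26.2 to 33.7 FPKM in cortex IR, and endothelial markers to 35.5 to 44.5 and 47.4 to 56.0 FPKM. Neuronal markers spanned 2212 to 2562 FPKM in cortex Con and 2298 to 2506 FPKM in cortex IR, with none of 4 called and 0 of 4 at an unadjusted p under 0.05. Choroid plexus markers reached 435 FPKM in cortex IR 2, 1039 FPKM in hippocampus Con 2 and 1622 FPKM in hippocampus IR 1, against 4.02 to 59.2 FPKM in the other libraries. No marker gene of any cell type passed in either tissue. At an unadjusted limma p under 0.05, 1 of 3 microglial markers was lower and 2 of 3 endothelial and 2 of 3 oligodendrocyte markers were higher in cortex IR, against 14.1% of all genes. In hippocampus IR 3 of 3 microglial, 3 of 4 astrocyte, 1 of 3 oligodendrocyte and 1 of 3 interneuron markers were lower and 1 of 3 endothelial and 2 of 6 hippocampal markers higher, against 13.9% of all genes. The other marker lists, among them fibroblast and striatum, had 0 genes at that threshold. Without cortex IR 2 the calls of *Per2* and *Ciart* were kept, and those of *Arntl* (log2 fold change 0.35, adjusted p = 0.123), *Nfil3* (0.62, adjusted p = 0.0506) and *Usp2* (-0.52, adjusted p = 0.0723) were lost with little change in size. The calls of *Arntl* and *Nfil3* were also lost without either other IR library. The part of these cells in the result was not tested.

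The spread of the members within a group was mostly small. The median coefficient of variation over the 9 genes was 4.97% in cortex Con, 4.67% in cortex IR, 7.42% in hippocampus Con and 6.998% in hippocampus IR. Among all tested genes with a group mean of at least 4 FPKM it was 6.52%, 4.64%, 8.09% and 5.51%. *Npas2* had both the highest value, 31.7% in hippocampus Con, and the lowest, 0.460% in hippocampus IR.

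Likeness of pattern was measured as Pearson's r of log2(FPKM + 1), centred within each tissue, over the 12 libraries and among 12846 genes, as a description only, since all libraries share the contrast of IR with Con. The genes nearest to *Ciart* were *Eef2k* (r = 0.984), *Pla2g4e* (r = 0.967) and *Dbp* (r = 0.960). Those nearest to *Cry1* were *Sbk1* (r = 0.944), *Homer1* (r = 0.937) and *Per2* (r = 0.931), and *Cry1* ranked 10 in the order of *Per2*. Ahead of it in that order stood *Sbk1* (r = 0.980), *Samd4b* (r = 0.967) and *Mir124a-1hg* (r = 0.950). The period and cryptochrome genes *Per2* and *Cry1* were the only members to reach the nearest 10 of each other.

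*Per1* was nearest to *Zfp189* (r = 0.972), *Dusp5* (r = 0.960) and *Dpy19l3* (r = 0.952), and *Per3* to *Gpr12* (r = 0.886), *Cyp2u1* (r = 0.862) and *Tram1* (r = 0.819). The positive arm had *Fermt2* (r = 0.909), *Mapk11* (r = 0.902) and *Dscaml1* (r = 0.900) nearest to *Arntl*, *Hook3* (r = 0.954), *Slc39a14* (r = 0.947) and *Pip5k1b* (r = 0.945) nearest to *Clock*, and *Pdia5* (r = 0.935), *Flrt1* (r = 0.914) and *Kcnt1* (r = 0.873) nearest to *Npas2*. *Cry2* was nearest to *Zufsp* (r = 0.878), *Necap2* (r = 0.873) and *Rara* (r = 0.864). At the other end of the order of *Arntl*, its known repressor gene *Nr1d1* ranked 6 from the bottom (r = -0.863), *Dbp* ranked 7 (r = -0.857) and *Ciart* ranked 35 (r = -0.794). At that end of the order of *Ciart*, *Nfil3* ranked 6 (r = -0.935).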

How the data were processed

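RNA sequencing of cortex and hippocampus was analysed in 12 libraries, 3 per group, grouped by their labels. Per the study's methods, the authors trimmed reads with FASTX_Trimmer and BBMap, mapped them with TopHat, normalized with edgeR and estimated FPKM with Cufflinks. The submitters' processing notes name mm10. Annotation, counting by strand and versions are not given in the sources used here. The labels name Trizol and the methods an RNeasy kit with poly(A) selection. The deposited values are FPKM, not counts, with unknown depth.

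The test took genes that reached 0.5 FPKM in 3 or more of a tissue's 6 libraries, on the scale log2(FPKM + 1), which understates the change of low genes, and used limma 3.58.1 (trend and robust prior) in R 4.3.3 and Benjamini-Hochberg adjustment over all genes tested. All 9 members passed the filter in both tissues. The steps were first tested on simulated data. All members were named, and from each further list the genes with an adjusted p under 0.05 in either tissue and the 2 with the largest absolute log2 fold change per tissue, except that cell type markers are given by sums and counts. For likeness, genes had a mean of at least 1 FPKM. The members and lists were chosen with earlier results of these data known. Gene positions are from GENCODE M21 and promoter windows from RefSeq, both on GRCm38. Alternatives changed pseudocount, filter, scaling, variance prior, replicate block, libraries in the fit and call rule, and left out each library in turn. Python 3.11.15 and matplotlib 3.10.9 made the figures.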

Additional observations from a re-analysis of the deposited data

How the results depend on the processing

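Directions and calls of the 9 genes were recomputed under each alternative, and 590 values kept their direction and side of the threshold, 18 lost a call, 5 gained one and 8 changed sign. With an unadjusted p in place of the adjusted one, 7 genes passed in cortex, 1 in hippocampus and 5 in the interaction. Leaving out 1 library gave 2 to 3 genes in cortex, 0 to 1 in hippocampus, 0 to 0 in the interaction and 3 to 6 for hippocampus against cortex in Con. Of these fits, the share of all genes passing is given only without cortex Con 1 (0.524%) and without hippocampus Con 3 (6.33%). A fit of all 12 libraries gave 1 gene in hippocampus, *Ciart*, against 0.505% of all genes. Hippocampus against cortex in Con gave 3 genes in a fit of the 6 Con libraries alone, and 3 without cortex Con 3 or without hippocampus Con 1. For these fits the share of all genes is not given. The call of *Arntl* in cortex was lost with no filter (adjusted p = 0.0686) and with limma without trend and robust prior (adjusted p = 0.0683). Directions turned, with no call, in hippocampus for *Npas2* under median-ratio scaling (0.00067), and with 1 library left out, over which the log2 fold change ranged from -0.15 to 0.20 for *Npas2* (positive without Con 3), from -0.00092 to 0.11 for *Clock* (negative without Con 1), from -0.080 to 0.11 for *Per1* (negative without Con 1, at -0.014, or IR 3) and from -0.019 to 0.16 for *Per3* (negative without Con 1, at -0.018, or IR 1). The *Npas2* interaction ranged from -0.32 to 0.028, positive without hippocampus Con 3. The cause was not tested.

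Same-numbered Con and IR libraries did not deviate together (r from -0.109 to 0.108 in cortex and from -0.393 to -0.0851 in hippocampus), so the numbers were not taken to pair the samples. A replicate block left 3 genes in cortex, with *Per1* gained (adjusted p = 0.0336) and *Arntl* lost (adjusted p = 0.0709), 0 in hippocampus and 0 in the interaction, and 3 for hippocampus against cortex in Con with tissue by number. The share of all genes passing is not given for the block fits, so these counts have no background beside them. Depth in reads is unknown, so counting error cannot be given.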
